A study of Mus musculus with 12 samples.

Results

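Mouse cortical neurons carrying a hairpin against Adar were compared directly with cortical neurons carrying a hairpin against Zfr, gene by gene and editing site by editing site. The 4 samples involved, 2 labelled shAdar1 and 2 labelled shZfr, belong to a series of 10. Of 23955 genes in the expression tables, 14785 passed the filter on low counts and were tested. Of 46689 listed editing sites, 4085 had 20 or more reads in each of the 4 samples, 1778 of those had an edited read in at least 1 sample, and 782 had 5 or more edited and 5 or more unedited reads and were tested.

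All cultures were of the C57BL/6J strain background and were made from cortices of E16.5 embryos. Hairpins in the pGreenPuro lentiviral backbone were delivered the day after seeding, and the neurons were harvested 7 days after dissection for sequencing of rRNA-depleted RNA. Every group therefore carried a virus and a hairpin, the controls included. The design pairs shAdar1 with the control hairpin shControl1 and shZfr with another control hairpin, shControl2, with 2 samples each. A further knockdown, shAdar2, targets Adarb1, and its 2 samples include 1 made of 3 libraries from the same RNA. The labels name a single hairpin per target, and the cultures hold whatever cells the dissociation and the medium left, infected or not. The series states biological replicates for the shAdar1 group and states nothing on how the shZfr samples relate. The p-values for genes use a spread estimated within the groups of all 10 samples, and those for sites a spread within the 4 samples compared. Part of either spread may be technical.

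Adenosine deaminases acting on RNA turn adenosines of duplex RNA into inosine, which is read as guanosine in sequencing. Adar encodes ADAR1, best known for editing long duplexes formed by inverted repeats and for keeping cellular duplexes from triggering innate sensors. Adarb1 encodes ADAR2, which edits many neuronal coding sites, such as the one in the AMPA receptor gene Gria2. Adarb2 encodes ADAR3, a brain protein for which no deaminase activity is known. Zfr encodes a zinc-finger protein that binds double-stranded RNA and carries a DZF domain, a module related to nucleotidyltransferases that it shares with Ilf2 and Strbp.

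The shAdar1 samples held 22785908 and 27005620 expected counts and the shZfr samples 19064055 and 21782059. Across all 10 samples the totals lay between 15818943 and 82653836. The shZfr samples resembled each other more closely than any other replicate pair. Their chi-square per degree of freedom over genes was 2.34, against 27.5 to 60.1 in the other groups and 21.9 to 60.2 among the 3 libraries made from the same shAdar2 RNA. The value was above sampling noise, but so were those of the libraries made from the same RNA. It therefore cannot show whether the shZfr samples are separate cultures. They were kept as 2 samples, as labelled, and counts of calls are also given with the shZfr samples summed into 1.

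The hairpins lowered their targets. Adar, given as counts relative to the TMM-scaled library size (CPM), was at 55 and 51.5 in the shAdar1 samples and 139.7 and 133 in the shZfr samples, against 153 and 192 in shControl1 and 139 and 118 in shControl2. Both shAdar1 samples lay below every other sample. The direct log2 difference, shAdar1 minus shZfr, was -1.35 ± 0.13 (SE), with an adjusted p of 1.16e-04 in edgeR's quasi-likelihood test with Benjamini-Hochberg adjustment over all genes, the test behind every adjusted p for a gene here. Zfr was at 323 and 291 CPM in shAdar1 and 173 and 173 CPM in shZfr, against 289.9 and 268 in shControl1 and 422 and 496 in shControl2. The direct difference of 0.83 ± 0.11 (SE), a 1.78-fold difference with edgeR adjusted p = 5.37e-04, was smaller than the fall from shControl2 to shZfr, -1.41. The shControl1 and shAdar1 samples held less Zfr than the shControl2 samples. Zfr was also low in the shAdar2 samples, at 179 and 197 CPM.

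Adarb1 was lower in the neurons with the Zfr hairpin. It stood at 49.2 and 45.5 CPM in the shZfr samples and at 118 and 94.9 CPM in the shAdar1 samples, with 122 and 118 in shControl1 and 99.4 and 92 in shControl2. The shZfr values were close to those of the samples with the hairpin against Adarb1 itself, 48.4 and 52 CPM. The direct log2 difference was 1.17 ± 0.12 (SE), edgeR adjusted p = 1.46e-04, and the shZfr samples were also below their own control, by a log2 difference of -1.02 ± 0.12 (SE) with edgeR adjusted p = 3.81e-04. The shAdar1 samples differed from shControl1 by -0.18 ± 0.12 (SE), which did not pass (edgeR adjusted p = 0.344). Adarb2, at 41.5 and 64.6 CPM in shAdar1 and 79.9 and 84.5 in shZfr, did not pass either, with a log2 difference of -0.63 ± 0.26 (SE) and edgeR adjusted p = 0.0799. On the deposited TPM scale, which accounts for transcript length, Adar was at 24.2 and 23.2 and Adarb1 at 46.6 and 38.2 in shAdar1, whereas in shZfr Adar was at 71.5 and 67.8 and Adarb1 at 22.5 and 20.8. The deaminase transcript at the higher level was thus Adarb1 in both shAdar1 samples and Adar in both shZfr samples.

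**Figure D1:**
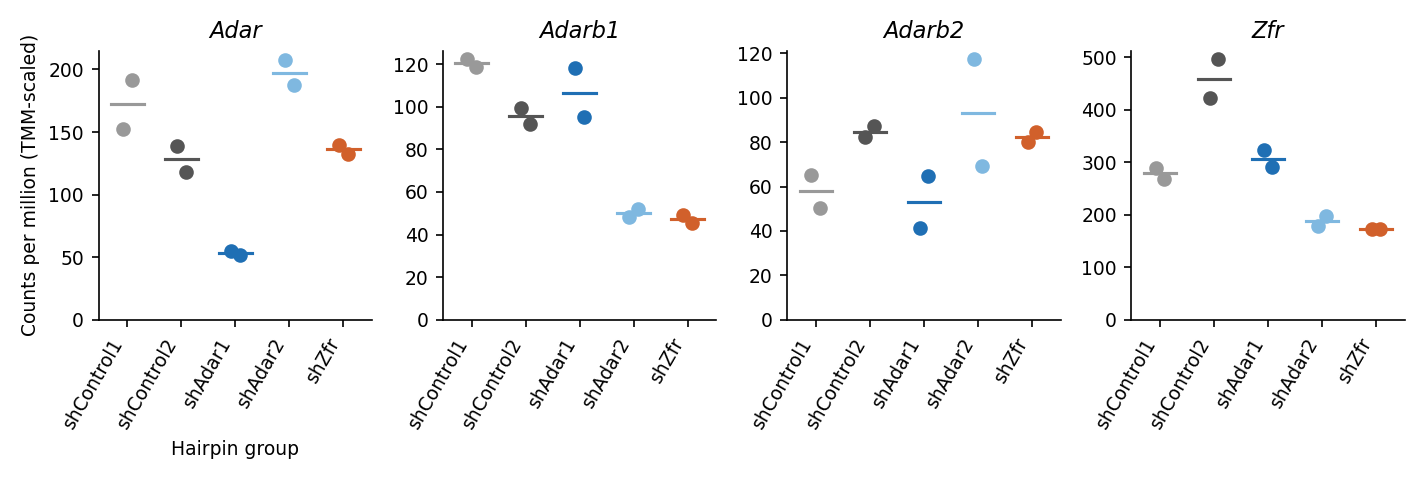
Normalised counts (CPM) of Adar, Adarb1, Adarb2 and Zfr in all 10 samples, by hairpin group; points are samples and lines are group means. The shAdar1 samples are the lowest for Adar, and the shZfr and shAdar2 samples are the 4 lowest for Adarb1.

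Editing differed between the knockdowns in both directions and to a similar extent. Of the 782 tested sites, 139 (17.8%) were edited more in shAdar1 than in shZfr and 140 (17.9%) less, together 35.7%, in edgeR's quasi-likelihood test on edited and unedited reads at an adjusted p under 0.05. The median difference was 20.1 percentage points among the sites edited more and -15.4 points among those edited less. These sizes follow in part from the selection of the sites. The median SD between replicates of a site was 3.04 points. At 556 sites, 71.1% of those tested, the levels of the 2 groups did not overlap. With the shZfr samples summed into 1, the counts were 101 and 110.

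The average level differed little. The mean over the 4085 covered sites was 2.83% and 2.5% in the shAdar1 samples and 2.53% and 2.49% in the shZfr samples. The groups overlapped, and the difference of 0.158 points had a two-sided exact permutation p of 0.667, where 2 samples against 2 cannot give less than 0.33. Over the 3178 sites that also had 20 reads in each control sample, both knockdowns were below both controls, with 2.36% and 2.05% in shAdar1, 2.09% and 2.00% in shZfr, 4.86% and 4.82% in shControl1, and 3.23% and 3.03% in shControl2. Pooling reads in place of averaging sites gave 4.14% and 3.27% in shAdar1 and 2.70% and 2.61% in shZfr. The deepest site, at chromosome 17 position 39980697, had between 6100 and 12428 reads in each sample, and without it the pooled difference was 0.740 points.

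The sites split by how their level in shAdar2, the Adarb1 knockdown, stood to that in shControl1. Zfr was low in shAdar2 too, as given above. Adar was at 101.2 and 95.7 TPM in shAdar2, against 72.3 and 94.9 in shControl1. Summed CPM of neuronal markers was 3265 and 3689 in shAdar2, against 7177 and 6568 in shControl1. For interferon-stimulated genes it was 291 and 836, against 87.9 and 79. The parts of lower Adarb1, lower Zfr and these other differences in this grading cannot be told apart. For this grading, levels in the pooled shAdar2 samples were divided by those in pooled shControl1, none of which enter the direct comparison. It covered the 470 tested sites with 20 or more reads in both and a level of at least 10% in shControl1. Reads at listed sites numbered 630293 in shAdar2 replicate 1 and 110255 in replicate 2, so the pooled level rests mostly on replicate 1. Of 220 sites at or below 50% of the control level in shAdar2, 87 were edited more in shAdar1 than in shZfr and 6 less, with a median difference of 8.53 points. Of 127 sites that kept 90% or more of the control level, 2 were edited more in shAdar1 and 61 less, with a median difference of -10.2 points. The 123 sites between gave 17 and 34, with a median of -3.85 points, and the 312 sites that were not graded gave 33 and 39. Seen from the calls, 82.1% of the 106 graded sites that were edited more in shAdar1 were at or below 50% in shAdar2, against 5.94% of the 101 graded sites that were edited less. Across the 470 sites, which share libraries and are not independent, Spearman's rank correlation between the shAdar2 ratio and the direct difference was -0.63.

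**Figure D2:**
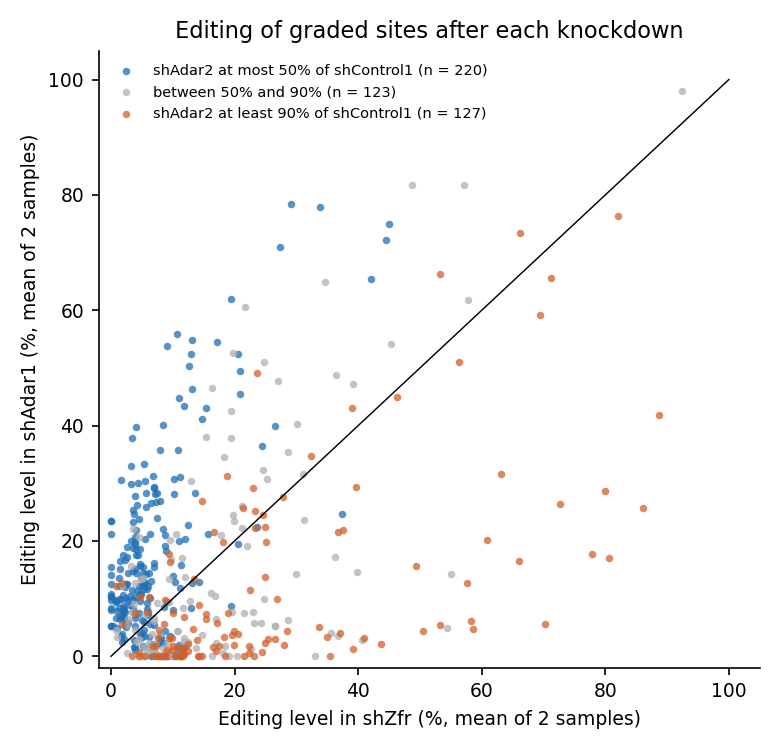
Mean editing level in shAdar1 (vertical, percent) against that in shZfr (horizontal, percent) at the 470 graded sites; points are sites, the line marks equal levels, and colours give the level in shAdar2 relative to shControl1. Most of the 220 sites that lose editing in shAdar2 lie above the line, and most of the 127 that keep it lie below.

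Grading against shControl2 gave the same order at the ends. Of 112 sites at or below 50% of shControl2 in shAdar2, 60 were edited more in shAdar1 and 0 less in the edgeR test, with a median difference of 14.6 points. At an unadjusted p under 0.05, 1 of them was edited less, and Fisher's exact test on pooled reads called 0. Of 155 sites at or above 90%, 10 were edited more and 67 less, with a median of -10.4 points. The middle class changed sign, from -3.85 points to 3.99 points.

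In the controls, both kinds of called sites were edited to a similar degree. The 139 sites edited more in shAdar1 had a median level of 26.5% in shControl1, 19.4% in shControl2 and 25.4% in shAdar1, and of 3.32% in shAdar2 and 4.08% in shZfr. The 140 sites edited less in shAdar1 had a median of 27.4% in shControl1, 14.8% in shControl2 and 26.5% in shAdar2, with 17.9% in shZfr and 1.2% in shAdar1. The levels in shAdar1 and shZfr follow from the selection of these sites. The other groups took no part in the calls, but a called site had to be edited in shAdar1 or shZfr. Their levels are thus not free of the selection either. The 503 tested sites that were not called had medians of 13.8% in shControl1, 7.94% in shControl2 and 6.25% in shAdar2.

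**Figure D3:**
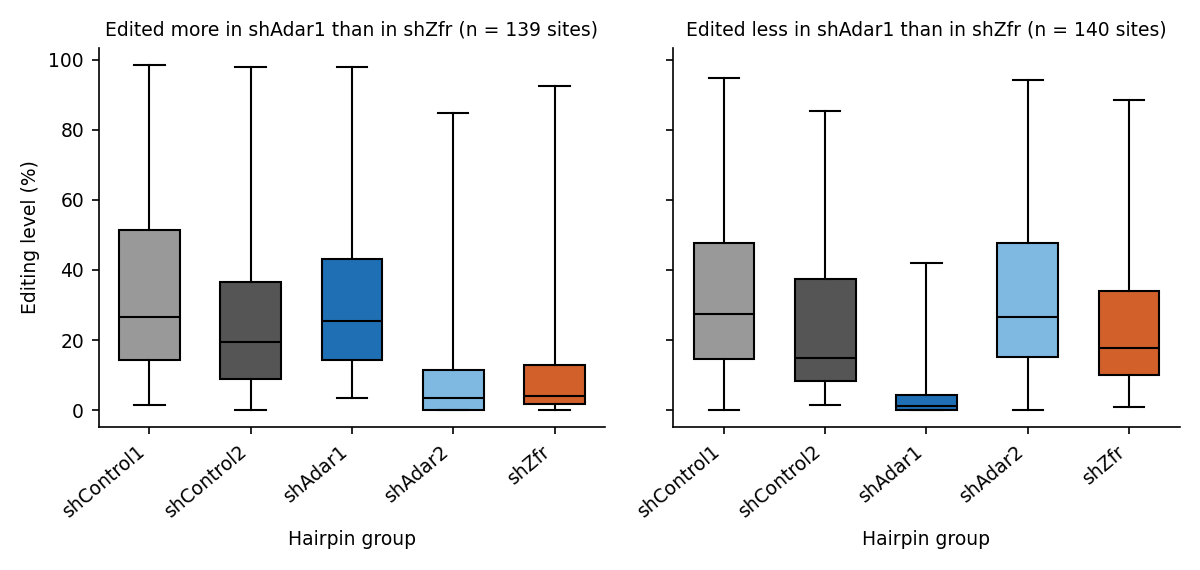
Editing level (percent) of the 139 sites edited more and the 140 sites edited less in shAdar1 than in shZfr, in each hairpin group; boxes give the median and quartiles, whiskers the range, levels are from pooled reads in the controls and shAdar2 and are means of 2 samples in shAdar1 and shZfr. In the first set the shAdar2 and shZfr boxes are low, in the second the shAdar1 box is low.

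At 7 of the 8 sites with the largest decreases in shAdar1, shZfr could be compared with shControl2, and the difference did not pass there (edgeR adjusted p from 0.274 to 0.991). The sites are listed by mm9 position, as in the deposited files, and were not assigned to genes because no mm9 annotation was used here. At chromosome 17 position 63402091 the level was 7.69% and 3.45% in the shAdar1 samples and 76% and 64.5% in the shZfr samples, over 25 to 39 reads, a difference of -64.7 points with edgeR adjusted p = 6.73e-05. The pooled level there was 63% in shControl1, 53% in shControl2 and 75.7% in shAdar2. Both shAdar1 samples were thus far below every other group. At chromosome 14 position 22615986 the shAdar1 samples had 6.35% and 3.12% and the shZfr samples 62.5% and 54.5%, with 63% in shControl1, 58.2% in shControl2 and 82.7% in shAdar2. Its shAdar1 level was below that of shControl1 with edgeR adjusted p = 9.29e-06, whereas shZfr against shControl2 gave 0.991. The same pattern held at chromosome 17 position 91258437, with 14.8% and 20.8% in shAdar1, 80.8% and 75% in shZfr and 81.6% in shAdar2. At chromosome 4 position 103309928 the values were 29.6% and 21.7% in shAdar1, 90.6% and 81.5% in shZfr and 94.1% in shAdar2.

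The other 4 of the 8 largest decreases followed suit. At chromosome 12 position 114196400 the levels were 19.4% and 14.7% in shAdar1 and 95.5% and 65.6% in shZfr, and the shZfr samples differed from each other by more there than at the sites above. The adjacent positions 109623361 and 109623362 on chromosome 10 had 11.5% and 15%, and 12% and 10%, in the shAdar1 samples. In the shZfr samples they had 72.1% and 72.7%, and 75% and 73.8%. At chromosome 19 position 7455551 the shAdar1 samples had 3.57% and 0% and the shZfr samples 53.8% and 56.4%, while pooled shControl1 was at 84.6%. Depth in shAdar2 was too low to grade the sites on chromosomes 10 and 19.

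At 5 of the 8 largest increases, shZfr was below shControl2 in edgeR's test. At position 71471989 of the X chromosome, the deepest of them with 100 to 204 reads in each sample, the level was 74.9% and 67.2% in shAdar1 and 29% and 25.6% in shZfr. The difference was 43.7 points with edgeR adjusted p = 5.57e-05. The pooled level was 84.9% in shControl1, 75.2% in shControl2 and 4.12% in shAdar2, so the shZfr level lay between the controls and shAdar2. The shAdar1 level there was below shControl1 as well (edgeR adjusted p = 0.0336). At chromosome 12 position 25745158 the shAdar1 samples had 83.8% and 72%, the shZfr samples 36.5% and 31.2%, and pooled shAdar2 42.7%. At chromosome 10 position 48964136 they had 77.6% and 79.1% in shAdar1, 19.1% and 39% in shZfr and 28.9% in shAdar2. At both, the shZfr samples lay near the pooled shAdar2 level. At chromosome 5 position 132222673 the values were 60% and 64% in shAdar1, 21.2% and 17.5% in shZfr and 2.56% in shAdar2. At chromosome 7 position 6919225 they were 53.6% and 58.1%, then 0% and 21.4%, with 20% in shAdar2. At chromosome 7 position 98297094 they were 44% and 63.6%, then 12.5% and 5.56%, with 2.22% in shAdar2, and shZfr did not pass against shControl2 (edgeR adjusted p = 0.0579). The positions 68165118 and 68165143 of chromosome 8 had the largest increases, 56.9 and 58.6 points, over 24 to 37 and 23 to 37 reads in each sample, and were not compared with the controls.

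Neighbouring adenosines could differ in opposite directions. The 279 called sites lay in 161 clusters of sites less than 10 kb apart, of which 59 held calls of more editing in shAdar1 alone, 78 of less alone, and 24 of both. Among the 100 pairs of called sites within 50 bases of each other, 77 had the same direction and 23 opposite directions. The cluster with most calls, on chromosome 11 from 75114062 to 75114543, had 19 tested sites, of which 8 were edited more and 1 less in shAdar1. The exception, position 75114086, had 1.47% and 10.9% in shAdar1 and 57.6% and 59% in shZfr, with 87.3% in shAdar2. Only 6 bases away, position 75114080 had 74.1% and 55.8% in shAdar1 and 30.2% and 39.2% in shZfr. Position 75114079, next to it, fell from 82% in shControl1 to 17.9% in shAdar2. The cluster around position 63402091 of chromosome 17 had the reverse mix, with 5 sites edited less and 1 more among 15 tested. There the position edited more, 63401879, had 44.7% and 44.8% in shAdar1, 3.33% and 18.6% in shZfr and 11.8% in shAdar2. These positions within clusters were chosen after their values were seen.

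**Figure D4:**
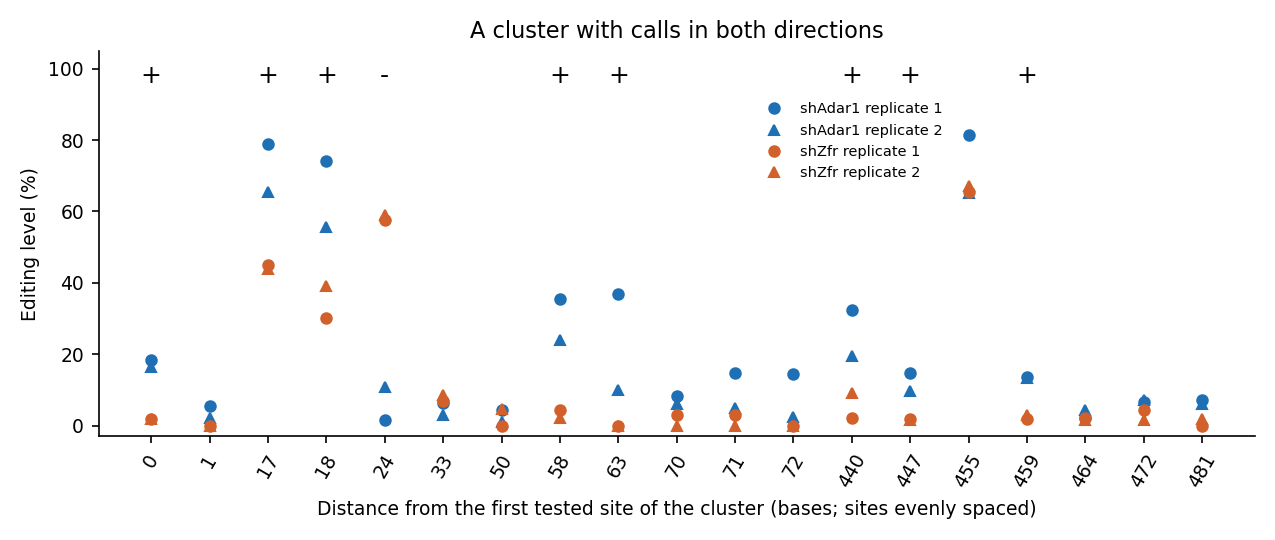
Editing level (percent) in each shAdar1 and shZfr sample at the 19 tested sites of the chromosome 11 cluster, ordered by distance in bases from the first of them and drawn evenly spaced; plus marks sites edited more and minus those edited less in shAdar1. The site at 24 bases, between sites edited more, is edited less in shAdar1.

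Calls in both directions occurred at isolated and at densely packed sites. Of 81 tested sites with no other listed site within 1 kb, 6 were edited more and 17 less in shAdar1, with a median difference of -2.36 points. Sites with 1 to 4 neighbours gave 49 more and 44 less of 253, and those with 5 or more gave 84 and 79 of 448. The medians of these classes were 2.86 and 0.51 points, and the differences between classes were not tested.

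Setting each knockdown against its own control gave a lopsided split. The controls themselves differed in editing, as their mean levels above show. When the change from shControl1 to shAdar1 was compared with that from shControl2 to shZfr, at the 566 sites with 20 reads in all 8 samples, the change was more positive in shAdar1 at 25 sites (4.42%) and more negative at 119 (21%). The same 566 sites gave 109 and 110 calls in the direct comparison. Of the largest increases, the site on the X chromosome kept its call, whereas those at position 48964136 of chromosome 10, 6919225 of chromosome 7 and 25745158 of chromosome 12 no longer passed. The direct comparison does not use the controls, and which of the hairpin, the control and any unlabelled batch sets the gap between controls cannot be told apart.

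Gene expression differed widely. At an adjusted p under 0.05, 3087 genes (20.9%) were higher in shAdar1 than in shZfr and 2714 (18.4%) lower, together 39.2%. The CPM of the 2 groups did not overlap at 77.4% of tested genes. With the shZfr samples summed into 1, 1462 genes were higher and 1709 lower. Of the 104 genes named here, 33 lost their call in that setting. The control hairpins differed as much, with 43.1% of genes called between shControl2 and shControl1, against 16.2% between shAdar1 and shControl1 and 30.7% between shZfr and shControl2. In the difference of changes, (shAdar1 minus shControl1) minus (shZfr minus shControl2), 2004 genes (13.6%) were more positive and 1882 (12.7%) more negative, together 26.3%. This test sets each knockdown against its own control, and its value is given below where it ends a call or turns a direction.

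Short transcripts were higher in shAdar1. The median log2 difference fell from 1.4 in the 149 genes with transcripts under 500 bases, 107 of them called higher, to -0.27 in the 2549 genes over 5000 bases. The same trend stood between the controls, where shControl2 minus shControl1 had medians of -1.27 and 0.26 in those classes. Within the pairs it was small, 0.15 and 0.01 for shZfr minus shControl2, and 0.19 and 0.03 for shAdar1 minus shControl1. Median fragment lengths were 225 and 220 bases in shAdar1, 231 and 236 in shZfr, 210 and 210 in shControl1, and 235 and 230 in shControl2. With the length trend removed, an adjustment made after seeing the data, 2543 genes (17.2%) were higher and 2520 (17%) lower. The part of fragment length in the gene results was not tested beyond this.

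Counting only called genes that reached a mean of 5 CPM in either knockdown and whose samples did not overlap, the gene furthest apart was Hapln1, which encodes a link protein that ties hyaluronan to proteoglycans in the extracellular matrix. It was at 87.1 and 85.4 CPM in shAdar1 and 2.36 and 1.96 CPM in shZfr, 40-fold apart, with 40.3 and 26.4 in shControl1 and 90.7 and 101 in shControl2. Its log2 difference was 5.32 ± 0.24 (SE) with edgeR adjusted p = 7.83e-06, and both shZfr samples lay below all others. Adcy1, a calcium-stimulated adenylyl cyclase of neurons, was at 1171 and 743 CPM in shAdar1 and 108 and 103 in shZfr, with 1204 and 1066 in shControl2. The log2 difference was 3.18 ± 0.28 (SE) (edgeR adjusted p = 6.41e-05). Fth1, the heavy chain of the iron store ferritin, was at 359 and 329 CPM against 32.2 and 31.9, a log2 difference of 3.42 ± 0.15 (SE) (edgeR adjusted p = 7.83e-06). In all 3 genes both shZfr samples were below every control sample. Mgst3, a microsomal glutathione S-transferase, was at 26.4 and 23.7 CPM against 1.09 and 0.905. Kcns1, a modifier subunit of voltage-gated potassium channels, differed by 3.13, L3mbtl4 by 3.09 and Swsap1, which acts in homologous recombination, by 3.02 on the log2 scale.

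The remaining 5 of the 12 largest increases among such genes lost their call once each knockdown was set against its own control. They were Ttr, the thyroid hormone carrier transthyretin, Arhgdib, which inhibits small GTPases, the ribosomal protein gene Rpl34, the histone gene Hist4h4, and Tmem256. The direct log2 differences were 4.53, 3.39, 3.08, 3.07 and 3.04 in that order. Set against their own controls, they were 2.30, 0.77, 1.07, 1.02 and 0.29, with edgeR adjusted p between 0.22 and 0.689. Ttr rested on low and scattered counts, 10.7 and 16.4 CPM in shAdar1, and had edgeR adjusted p = 0.0569 with the length trend removed. Rpl34 also has processed copies in the genome, between which reads could be split.

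Among the 12 largest decreases, chosen in the same way, several genes were high in shZfr alone. Gpr50, an orphan receptor related to the melatonin receptors, was at 0.364 and 0.479 CPM in shAdar1 and 8.52 and 9.05 in shZfr, with 0.423 and 0.29 in shControl1 and 0.334 and 0.457 in shControl2. Its log2 difference was -4.36 ± 0.42 (SE) with edgeR adjusted p = 1.05e-04. Ano1, a calcium-activated chloride channel, was at 0.41 and 0.811 CPM against 9.78 and 9.8, and Ahnak, a giant scaffold protein, at 11.3 and 11.4 against 168 and 171. For these 3 genes the shZfr samples were above all 8 others. The neurofilament heavy chain gene Nefh, at 8.38 and 5.57 CPM in shAdar1 and 49.2 and 50.7 in shZfr, differed by -2.84 ± 0.20 (SE) with edgeR adjusted p = 2.89e-05. Rai14, which encodes an actin-associated protein, differed by -2.89, and Plagl1, an imprinted zinc-finger transcription factor, by -2.82. All of these passed in the difference of changes too.

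Another 5 did not pass there. Dmrta1, Gjc3, Mbnl3, Itga2 and Moxd1 had direct log2 differences between -3.72 and -2.97. With each control taken into account, Dmrta1 was at -0.31, the collagen-binding integrin subunit Itga2 at -1.97 and Moxd1 at -1.74. Gjc3, a connexin of oligodendrocyte-lineage cells, turned to 0.13 and the splicing regulator Mbnl3 to 0.89. Mbnl3 was at 1.23 and 1.55 CPM in shAdar1 and 0.538 and 0.386 in shControl1, and at 14.2 and 13.2 in shZfr and 7.82 and 8.95 in shControl2. The controls thus differed in the same direction as the knockdowns.

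Target genes of the p53 transcription factor, which responds to DNA damage and other stress, were lower in shAdar1 more often than higher. Of 21 tested, 12 were lower, where 18.4% of all genes were, and 1 was higher, with a median log2 difference of -0.72 against 0.05 over all genes tested. In the difference of changes 16 were lower, where 12.7% of all genes were. Trp53inp1, a stress-induced protein that p53 activates, was at 75 and 94.1 CPM in shAdar1 and 562 and 578 in shZfr. Its log2 difference was -2.75 ± 0.20 (SE) with edgeR adjusted p = 2.89e-05. Zmat3, an RNA-binding p53 target, was at 160.3 and 161 CPM against 642 and 635, with 159 and 161 in shControl1 and 71.8 and 70.2 in shControl2, a log2 difference of -1.99 ± 0.09 (SE) (edgeR adjusted p = 7.83e-06). For both genes the shZfr samples were above every control sample. The cyclin gene Ccng1 differed by -1.84. Cdkn1a, the cell cycle inhibitor p21, was at 34.4 and 27.9 CPM in shAdar1 and 75.1 and 74.7 in shZfr, but at 81.7 and 102 in shControl1 and 30.7 and 24.5 in shControl2. For that gene the shAdar1 samples resembled shControl2, and the shZfr samples approached shControl1. Over the list, the median log2 difference was -1.14 for shAdar1 against shControl1 and 0.77 for shZfr against shControl2, and it was -1.09 between the controls. The 1 gene that was higher, the apoptosis effector Bax, differed by 0.65 and turned to -1.1 in the difference of changes, and it did not pass with the length trend removed (edgeR adjusted p = 0.744). Gene names outside the naming rule, such as Bax, were added after their values were seen.

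Among genes of cholesterol and fatty acid synthesis the calls were toward higher levels in shAdar1. Of 28 tested, 13 were higher, where 20.9% of all genes were, and 0 lower in the edgeR test, with 0 lower also at an unadjusted p under 0.05 and by DESeq2. The list had a median log2 difference of 0.69. With the length trend removed 14 members were higher, where 17.2% of all genes were, and 12 in the difference of changes, where 13.6% were. Mvk, mevalonate kinase, was at 40.1 and 24 CPM in shAdar1 and 8.8 and 9.65 in shZfr, a log2 difference of 1.79 ± 0.29 (SE) with edgeR adjusted p = 0.00137. The next enzyme of the mevalonate pathway, Pmvk, differed by 0.96, and Fdps, farnesyl diphosphate synthase, by 1.17. Pmvk did not pass in the difference of changes (0.75, edgeR adjusted p = 0.0535), nor Fdps with the length trend removed (0.80, edgeR adjusted p = 0.0695). Acly, which makes cytosolic acetyl-CoA, was at 449.8 and 276 CPM against 176 and 171, and turned to -0.14 in the difference of changes. The shAdar1 samples were unequal throughout, with summed CPM over the list of 8897 and 6445, against 4748 and 4717 in shZfr. The controls differed too, with sums of 5154 and 4335 in shControl1 and 7295 and 6711 in shControl2. The median log2 difference was 0.61 for shAdar1 against shControl1 and -0.34 for shZfr against shControl2. It was 0.35 for shControl2 against shControl1.

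Glutamate receptor genes differed in both directions. Of 11 AMPA and kainate receptor genes, including the delta receptors, 5 were lower in shAdar1 and 1 higher, against 18.4% and 20.9% of all genes. Set against their own controls, the counts were 1 lower and 3 higher, against 12.7% and 13.6% of all genes, with a median of 0.07. Gria2, the AMPA subunit whose coding site ADAR2 edits, was at 1066 and 947 CPM in shAdar1 and 2049 and 2066 in shZfr, a log2 difference of -1.03 ± 0.11 (SE) (edgeR adjusted p = 1.95e-04). It was at 818 and 788 CPM in shControl1 and 1532 and 1728 in shControl2, and the difference of changes was -0.01. Gria3, another AMPA subunit, was at -1.14 and also passed there, at -1.20. Grik3 was at -1.12 and Gria4 at -0.70 in the direct comparison, and the kainate receptor gene Grik1 was higher, at 0.65. With each control taken into account, Grik3 turned to 0.30 and Gria4 did not pass (-0.54, edgeR adjusted p = 0.0594). Of 13 NMDA and metabotropic receptor genes, 5 were higher and 0 lower in the edgeR test, against 20.9% and 18.4% of all genes. At an unadjusted p under 0.05, 1 was lower, and 1 by DESeq2. Taken in either direction, the share called was close to the 39.2% of all genes. The genes that were higher were the NMDA subunits Grin3a (0.83), Grin1 (1.12), Grin2a (0.78) and Grin2d (0.59), and the presynaptic receptor gene Grm2 (0.90). Grin1 was at 143 and 104 CPM in shAdar1 and 57.8 and 56.1 in shZfr, but followed the controls, 164 and 238 in shControl1 and 76.3 and 63.3 in shControl2. In the difference of changes Grin1 and Grm2 turned to -0.41 and -1.21, and Grin3a and Grin2a passed at 1.56 and 1.47, while Grin2d did not (0.50, edgeR adjusted p = 0.21). Over that list 5 were then higher and 2 lower, against 13.6% and 12.7% of all genes.

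Of 20 postsynaptic scaffold and signalling genes, 9 were higher in shAdar1, 1 was lower and 10 did not pass, where 20.9% of all genes were higher. Set against their own controls, 11 were higher, where 13.6% of all genes were. Nlgn3, an adhesion protein of the postsynaptic membrane, was at 154 and 165 CPM in shAdar1 and 83 and 82.3 in shZfr, a log2 difference of 0.95 ± 0.10 (SE) (edgeR adjusted p = 1.35e-04). Nrgn, the calmodulin-binding protein neurogranin, was at 41.3 and 33.9 CPM against 6.79 and 7.64, and the scaffold gene Dlg2 at 692 and 551 against 331 and 332. In each of them the shZfr samples were below both controls. The adhesion gene Lrrtm2 was lower, at -0.88, and at 0.26 in the difference of changes. Inhibitory receptor genes went both ways, with 5 of 18 higher and 3 lower, close to the 39.2% called among all genes. The counts were 3 and 3 with the length trend removed, and 4 and 1 in the difference of changes. Among all genes the shares were 17.2% and 17%, then 13.6% and 12.7%. Glrb, the beta subunit of glycine receptors, was at 107 and 89.9 CPM in shAdar1 and 26.6 and 27.8 in shZfr, a log2 difference of 1.86 ± 0.14 (SE) (edgeR adjusted p = 3.64e-05), and shZfr was again below both controls. Gabra3, itself a known editing target, Gphn, Gabrg3 and Gabrd were the others that were higher, and Gabrg1 (-0.76) and Glra2 (-0.54) were among those that were lower. Gabrg1 turned to 1.11 in the difference of changes, edgeR adjusted p = 0.00572, where Glra2 (-0.39), Gphn (0.22) and Gabrd (1.00) did not pass, with adjusted p between 0.116 and 0.512. Gabrg3 and Gabrd did not pass with the length trend removed (edgeR adjusted p = 0.138 and 0.0669).

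**Figure D5:**
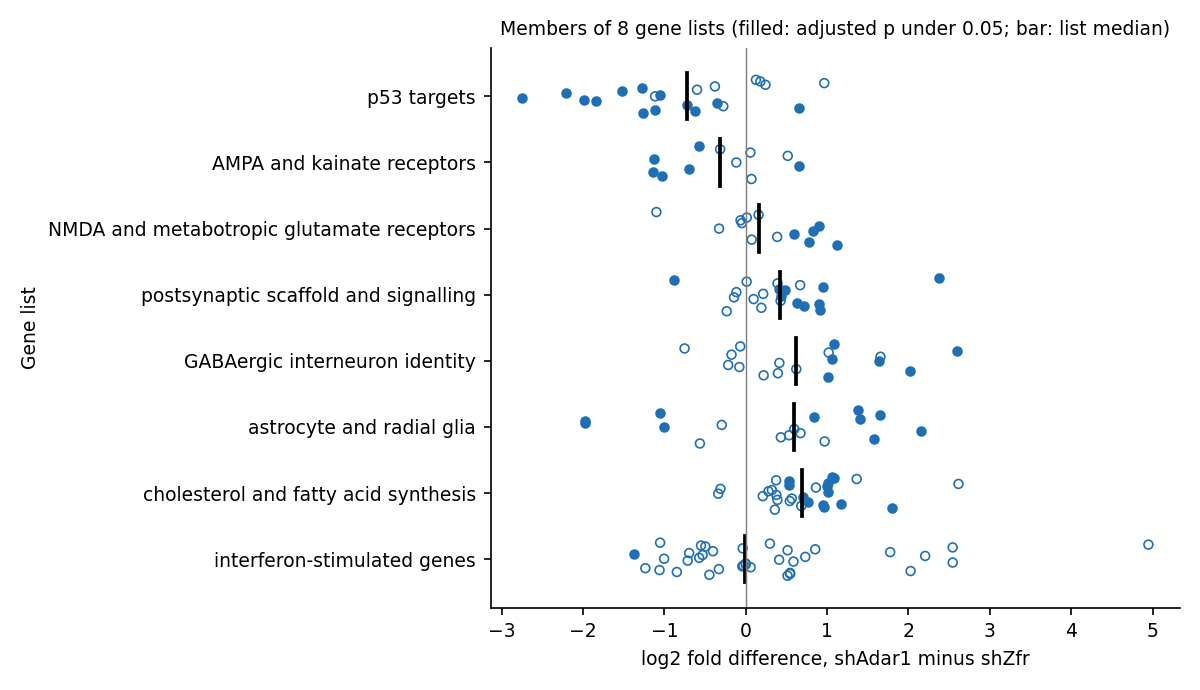
log2 fold difference, shAdar1 minus shZfr, of the tested members of 8 gene lists; points are genes, filled where the adjusted p was under 0.05, and bars are list medians. Most filled p53 targets lie to the left of 0, and the filled genes of cholesterol and fatty acid synthesis lie to the right.

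Among 25 genes with known recoding sites, 9 were lower and 3 higher in shAdar1, against 18.4% and 20.9% of all genes. The lean toward lower levels was gone with the length trend removed, 5 and 5, and in the difference of changes, 4 and 4. Among all genes 17% were lower and 17.2% higher in the first setting, and 12.7% and 13.6% in the second. Htr2c, the serotonin receptor gene with a cluster of edited codons, was at 10.5 and 10.4 CPM in shAdar1 and 44.2 and 48.6 in shZfr, a log2 difference of -2.15 ± 0.23 (SE) (edgeR adjusted p = 1.63e-04). It was at 45.6 and 41.1 CPM in shControl1 and 13.2 and 11.1 in shControl2, so that each knockdown resembled the other one's control. The splicing factor gene Nova1, at 23.3 and 36.9 CPM against 80.7 and 72.9, differed by -1.35 but by 0.63 in the difference of changes. The genes that were higher were Gabra3, Grik1 and Nova2, of which Nova2 did not pass in the difference of changes (0.14, edgeR adjusted p = 0.513).

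Of 10 genes of paraspeckles and nuclear-retained RNA, 5 were lower and 1 higher, again against 18.4% and 20.9% of all genes. With each control taken into account, the 5 lower calls were lost and 1 gene was higher, with a median of 0.12. In that test 12.7% of all genes were lower and 13.6% higher. Neat1, the long noncoding RNA on which paraspeckles assemble, was at 9.06 and 19.5 CPM in shAdar1 and 73.4 and 72.2 in shZfr, above both controls in shZfr (5.53 and 7.73 and 10.9 and 12.4). The log2 difference was -2.34 ± 0.45 (SE) with edgeR adjusted p = 0.0031. Neat1 did not pass in the difference of changes (-1.53, edgeR adjusted p = 0.104). Sfpq, Pspc1, Matr3 and Malat1 were lower too, by less than 1 log2 unit, and Slc7a2, whose transcripts include a nuclear-retained edited form, was higher, at 1.01. In the difference of changes Sfpq, Pspc1 and Malat1 turned to 0.18, 0.14 and 0.59, and Matr3 did not pass (-0.52, edgeR adjusted p = 0.0534). Malat1 did not pass with the length trend removed either (edgeR adjusted p = 0.121). The neuronal noncoding RNAs Snhg11 (-1.61), Kcnq1ot1 (-1.09) and Rian (-0.93) were lower, 3 of 8 tested. Snhg11 passed in the difference of changes, whereas Kcnq1ot1 (-0.19) and Rian (-0.09) did not.

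Of 20 tested genes whose proteins are known to act on the ADAR enzymes, 4 were higher in shAdar1 and 7 lower, against 20.9% and 18.4% of all genes. Set against their own controls, 4 were higher and 3 lower, against 13.6% and 12.7% of all genes. Wwp2, the ubiquitin ligase that acts on ADAR2, was at 30.5 and 24.5 CPM in shAdar1 and 13.3 and 12.9 in shZfr, with 20.9 and 23.4 in shControl1 and 22.6 and 21.3 in shControl2. Its log2 difference was 1.06 ± 0.16 (SE) with edgeR adjusted p = 9.69e-04, and that of Aimp2 was 1.1. The short ribosomal transcript Rps14 was higher by 1.39 and turned to -0.38 in the difference of changes. Fxr1, an RNA-binding protein of the fragile X family, was at 86.6 and 83.2 CPM against 168 and 166, a log2 difference of -0.98 ± 0.11 (SE). The cleavage factor gene Cpsf6 was at -1.08, but at 0.48 in the difference of changes. Of the 5 DZF-domain genes, Zfr itself was higher and Strbp lower, at -0.66, which did not pass with the length trend removed (edgeR adjusted p = 0.101) or in the difference of changes (-0.33, edgeR adjusted p = 0.196).

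Interferon-stimulated genes and sensors of double-stranded RNA seldom passed between the knockdowns. Of 36 interferon-stimulated genes tested, 1 was lower in shAdar1 and 0 higher in the edgeR test, with 0 higher also at an unadjusted p under 0.05 and by DESeq2, against 39.2% of all genes in either direction. Their summed CPM was 96.8 and 104 in shAdar1 and 109 and 98.3 in shZfr, within the range of the control samples, 79 to 137. Many members had few reads, so small differences were not detectable at this depth. The exception, the guanylate-binding protein gene Gbp2, was at 0.228 and 0.184 CPM against 0.575 and 0.503, with edgeR adjusted p = 0.0462. It had an adjusted p of 0.105 by DESeq2, and did not pass in the difference of changes (-1.86, edgeR adjusted p = 0.0772). Of 19 sensors and binders of double-stranded RNA, 2 were higher, among them Tarbp2, a partner of Dicer, at 1.01, which did not pass in the difference of changes (0.55, edgeR adjusted p = 0.159).

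Cell type markers also differed between the groups, and in bulk RNA fewer cells of a type and less RNA per cell cannot be told apart. Neuronal genes were abundant in all samples, with summed CPM over 9 markers of 8282 and 7107 in shAdar1 and 11009 and 11230.4 in shZfr. The neurofilament genes Nefm (-2.16) and Nefl (-0.98) and the dendritic gene Map2 (-1.06) were lower in shAdar1, while Rbfox3 (0.47) and Tubb3 (0.36) were higher. Nefm kept its call in the difference of changes, where Nefl (-0.86), Map2 (-0.21) and Rbfox3 (0.41) did not pass, with edgeR adjusted p between 0.136 and 0.523, and Tubb3 turned to -0.12. Tubb3 did not pass with the length trend removed either (edgeR adjusted p = 0.409).

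The GABAergic interneuron list had 6 of 17 higher in shAdar1, where 20.9% of all genes were higher, and 0 lower in the edgeR test, where 1 was lower at an unadjusted p under 0.05 and 1 by DESeq2. Npy, which encodes neuropeptide Y, was at 9.11 and 16.7 CPM in shAdar1 and 1.96 and 2.31 in shZfr, with 13.5 and 15.7 in shControl1 and 8.06 and 4.61 in shControl2. The log2 difference was 2.59 ± 0.45 (SE) (edgeR adjusted p = 0.00177), and it did not pass in the difference of changes (1.38, edgeR adjusted p = 0.118). The transcription factor gene Lhx6 differed by 1.64, the neuropeptide gene Sst by 1.06, Reln by 1.09, and the GABA-synthesising enzyme gene Gad1 by 1.01. Sst did not pass with the length trend removed (edgeR adjusted p = 0.602), nor Reln in the difference of changes (1.00, edgeR adjusted p = 0.051). In the latter test 7 of the 17 were higher, against 13.6% of all genes.

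Astrocyte and radial glia markers divided, with 6 of 17 higher and 4 lower in shAdar1, against 20.9% and 18.4% of all genes. With each control taken into account, 10 were higher and 1 lower, against 13.6% and 12.7% of all genes. Those that were higher in the direct comparison included the glutamate transporter Slc1a2, at 545 and 595 CPM against 197 and 184, the connexin Gja1, at 55.3 and 92.7 against 18.5 and 14.8, and the lipid carrier Apoe, at 203 and 355 against 94.1 and 83. Slc4a4, Glul and Hes5 were the others, and Hes5 did not pass with the length trend removed (edgeR adjusted p = 0.137). The genes that were lower were those of the intermediate filaments, Vim at 98.2 and 168 CPM against 509.9 and 543, Nes at 76.7 and 161 against 475 and 459, and the transcription factor genes Sox9 and Pax6. The log2 differences were 1.58 ± 0.15 (SE) for Slc1a2 and -1.98 ± 0.28 (SE) for Vim, with edgeR adjusted p of 9.89e-05 and 6.04e-04. In the difference of changes Sox9 and Pax6 turned to 0.30 and 0.11, and Nes did not pass (-1.31, edgeR adjusted p = 0.218). Sox9 did not pass with the length trend removed either (edgeR adjusted p = 0.0577). Summed over the list, CPM was 2534 and 4279.8 in shAdar1 and 3387 and 3224 in shZfr, so that the groups overlapped.

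The shAdar1 samples differed from each other in RNA of genes that mark glial and dividing cells. Summed CPM of 14 cell cycle and progenitor genes was 289 and 679.7 in shAdar1 and 843 and 783 in shZfr, and for the oligodendrocyte lineage it was 155 and 436 and 337 and 290.0. Of the 14 genes, 1 was higher in shAdar1, 0 were lower and 13 did not pass in the edgeR test, against 20.9% and 18.4% of all genes. At an unadjusted p under 0.05, 2 were lower, and 1 by DESeq2. With the length trend removed, 0 were higher and 1 lower, against 17.2% and 17% of all genes. Of 9 oligodendrocyte lineage genes tested, 1 was higher, Olig1 (1.61), and 1 was lower, against 20.9% and 18.4% of all genes. These shares also apply to the lists that follow here. The 5 microglial genes tested summed to 0.137 and 0.406 CPM in shAdar1 and 0.575 and 0.352 in shZfr, and 0 of them passed in the edgeR test, at an unadjusted p under 0.05 or by DESeq2. Of these, Itgam was at 0 in both shZfr samples and C1qa in both shAdar1 samples. The 9 endothelial, mural and fibroblast genes tested summed to 15.4 and 14 and 10 and 11.1, with the mural gene Rgs5 higher (3.45) as the single call, which did not pass in the difference of changes (2.29, edgeR adjusted p = 0.223). The part of these cell types in the other gene results was not tested.

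Matrix genes, which include Hapln1, had 4 of 13 higher and 3 lower, against 20.9% and 18.4% of all genes. In the difference of changes 5 were higher and the 3 lower calls were lost, against 13.6% and 12.7% of all genes. Beside Hapln1, the hyaluronan synthase gene Has3 was at 42.6 and 35.1 CPM in shAdar1 and 15.8 and 15.6 in shZfr, and the proteoglycan gene Ncan at 989 and 1233 against 592 and 569. Reln, which is also on the interneuron list, was the fourth. Tnc, the glycoprotein tenascin-C, was lower, at 116 and 170.2 CPM against 636 and 628, a log2 difference of -2.14 ± 0.33 (SE) (edgeR adjusted p = 9.56e-04), but did not pass in the difference of changes (-0.83, edgeR adjusted p = 0.206). Vcan (-0.83) and Adamts18 (-0.72) were lower too, but Vcan did not pass in the difference of changes (-0.02, edgeR adjusted p = 0.974) and Adamts18 turned to 3.05. Neither passed with the length trend removed (edgeR adjusted p = 0.127 and 0.0709). Replication-dependent histone genes, whose transcripts are short, had 12 of 20 higher and 0 lower in the edgeR test, at an unadjusted p under 0.05 and by DESeq2, with a median of 1.13. With the length trend removed, 3 of the 20 were higher, where 17.2% of all genes were, and the median was 0.28. Set against their own controls, 1 was higher, where 13.6% of all genes were.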

How the data were processed

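RNA from rRNA-depleted cortical neuron cultures was sequenced, and the deposited tables were used as they stand. Per the submitters' processing notes, the tools were RSEM 1.2.30, STAR 2.5.4b, Trim Galore 0.4.5, DESeq2 1.20.0 and SAMtools 1.4, listed without a role, on the mm9 build. The authors deposited RSEM expected counts and TPM per gene, per the file headers, and counts of A and G reads with their ratio, an editing level given as a fraction, per listed site. How the sites were chosen and whether counting used strand are not given in the sources used here.

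Expected counts were rounded, the 3 libraries of shAdar2 replicate 1 were summed, and a model of all 10 samples was fitted in edgeR 4.0.16 (filterByExpr, TMM, quasi-likelihood F test) with a Benjamini-Hochberg adjusted p under 0.05 as threshold. Sites were tested in edgeR on edited and unedited counts of the 4 samples, with a coverage term per library, at 20 or more reads in each. Both tests were run on simulated data. Alternatives included DESeq2 1.42.0, other filters and scalings, a replicate block, leaving out each sample, the difference of changes, and a length trend removed by lowess, the last added after the data were seen.

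Named were the ADAR enzymes and Zfr, the 12 largest increases and decreases among genes past the threshold whose samples did not overlap and whose higher group reached 5 CPM, up to 4 members per list by lowest p, and the 8 largest increases and decreases among sites, with at most 2 per cluster. The results of a few genes that met these rules are not reported here. Members and lists were chosen with earlier results of these data known. Read counts limit the precision of a level, and PCR duplicates could not be told from separate molecules. A shared reading of sense and antisense genes could not be checked. No genome of the build was used, so site sequences are not shown.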

Additional observations from a re-analysis of the deposited data

Results flagged for a closer look

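The response to each hairpin, measured against its own control, differed between Adar and Zfr knockdown by a test of the difference itself. In edgeR, 2004 genes changed more positively in shAdar1 than in shZfr and 1882 more negatively, of 14785 tested. Of the 5801 genes called in the direct comparison, 35.1% kept their call and direction in that test, and 234 genes were called in opposite directions by the 2 tests. For editing, 25 sites changed more positively and 119 more negatively in shAdar1, of 566 tested. Of the sites called in the direct comparison, 23 of those edited more and 89 of those edited less were called in the same direction, and 0 were called in opposite directions. The control samples take part in this test and not in the direct one, and mean editing was 4.86% and 4.82% in shControl1 and 3.23% and 3.03% in shControl2.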

How the results depend on the processing

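Direction and side of the threshold held for most named genes under DESeq2, RLE size factors, no filter on low counts and leaving out the ribosomal precursor Rn45s. The counts of genes higher and lower moved by over 1.5 times in some settings. Leaving out 1 sample at a time gave 1467 to 2327 genes higher and 1591 to 2100 lower, with the fewest when a shZfr sample was left out; the lone sample left in a group is then assumed to vary like the other groups. Of the 104 named genes, 17 to 33 lost their call with 1 sample left out, 33 with the shZfr samples summed and 13 with the length trend removed, and in the difference of changes 32 lost it and 19 changed sign. Summing the shZfr samples gave 1462 and 1709, and the difference of changes 2004 higher. With a replicate block there were 3067 genes higher and 2767 lower and 104 and 106 sites edited more and less; the labels share replicate numbers without tying samples together, and deviations of same-numbered shAdar1 and shZfr samples had a correlation of -0.04.

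Sites edited more and less were 35 and 32 of 158 at a minimum of 50 reads, and 48 and 62 of 1778 with 1 edited and 1 unedited read. Leaving out 1 sample gave 54 to 130 sites edited more and 73 to 85 less. The difference of changes gave 25 sites edited more. The gap in mean level was 1.05 points with pooled reads and 0.740 without the deepest site, and between -0.011 and 0.326 points with 1 sample left out. Grading by shControl2 gave medians of 14.6 points at or below 50% and 3.99 points between.

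In the difference of changes the sign turned for Gjc3 (0.13), Mbnl3 (0.89), Acly (-0.14), Lrrtm2 (0.26), Grin1 (-0.41), Grm2 (-1.21), Grik3 (0.30), Gabrg1 (1.11), Nova1 (0.63), Rps14 (-0.38), Cpsf6 (0.48), Bax (-1.1), Tubb3 (-0.12), Sfpq (0.18), Pspc1 (0.14), Malat1 (0.59), Pax6 (0.11), Sox9 (0.30) and Adamts18 (3.05). Among these values, Grm2, Gabrg1, Bax and Adamts18 passed the threshold in the new direction. In simulated reads with the spread between real replicates, 100 of 782 sites per set had 4-fold changed odds, where 35.7% of sites were called in the data. Of the changed sites, 12.2% were recovered, and 24.6% of those at levels from 10% to 90%. Among the calls at simulated sites, 4.69% were false. In simulated counts over 14501 genes, 200 genes were changed per set, where 39.2% of the genes tested in the data were called. There 52% of 2-fold and 83.7% of 4-fold changes were recovered, and 7.5% of the calls were false at the 0.05 threshold. Both simulations changed a smaller share than was called in the data, so their rates need not hold for it. The depth and 2 samples a group limit both counts.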

Other observations

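A few sites went against the division by response in shAdar2. Of the 127 sites that kept 90% or more of the shControl1 level in shAdar2, 2 were edited more in shAdar1 than in shZfr. At chromosome 16 position 72280968 the shAdar1 samples had 39.3% and 59.1% and the shZfr samples 20.9% and 26.3%, against 25.9% in pooled shControl1, 36.6% in pooled shControl2 and 24.0% in pooled shAdar2. Of the 220 sites that fell to 50% or less, 6 were edited less in shAdar1, and at 5 of these both shAdar1 samples were at 0%. One pair of them lay 10 bases apart on chromosome 3, at positions 127023160 and 127023170, with 17.0% and 18.9% in shControl1, 6.78% and 3.51% in shControl2, 3.23% and 6.67% in shAdar2, and mean levels of 9.19% and 10.1% in shZfr. The shZfr means were thus below shControl1 and above shControl2. These positions were chosen after their values were seen.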
